A study of Homo sapiens with 10 samples.

Results

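The genes described here are the 10 that encode the core machinery of mitochondrial fusion and fission: MFN1, MFN2, OPA1, OMA1, DNM1L, FIS1, MFF, MIEF1, MIEF2 and MTFP1. They were picked by symbol for their known function, at a time when earlier results of these data were known, and all 10 were found among the 78932 gene identifiers of the count table and among the 21033 genes with enough counts to be tested. The RNA came from beating cardiomyocytes made from H1, an established line of human embryonic stem cells. Cells of 5 libraries were given a control GapmeR and cells of the other 5 a GapmeR directed at CLIPPER, each at 50 nM on day 9 of differentiation, and RNA was taken 48 hours later. A GapmeR is a short antisense oligonucleotide whose DNA core lets RNase H cut the RNA it pairs with. All 10 libraries share the cell line, the differentiation and the lipid transfection. The control group is labelled WT, and no untransfected group was analysed here. CLIPPER is not a gene name in the annotation used, so its own level was not analysed here and the group labels were not checked against it.

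Mitochondria join and divide continuously, and large GTPases of the dynamin family do the work. The mitofusins MFN1 and MFN2 join outer membranes, and OPA1 joins inner membranes and holds cristae together. The protease OMA1 cuts OPA1 when the inner membrane is stressed, which stops inner membrane fusion. For division the cytosolic GTPase DRP1, the product of DNM1L, is drawn to the outer membrane by the adaptors MFF, MIEF1 (also called MiD51), MIEF2 (also called MiD49) and FIS1, and then constricts the organelle. MTFP1 is an inner membrane protein that favours division. In heart muscle these proteins shape mitochondria packed between myofibrils, and loss of either mitofusins or DRP1 is known to harm the heart.

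Of the 10 genes, 4 were higher in the knockdown libraries, and these were the 4 adaptors that recruit DRP1. The genes that fell were MFN2, OMA1 and DNM1L. MFN1, OPA1 and MTFP1 did not pass the test. Calls are from edgeR's quasi-likelihood test at an adjusted p below 0.05, with the adjustment over every tested gene. The same test called 79.7% of all genes, 40.1% higher and 39.6% lower, so that 7 calls among 10 members is a share near the background. The median log2 fold change of the 10 members was 0.002, against 0.0056 for all tested genes. Values without overlap between the groups were seen in 6 members and in 67.5% of all tested genes.

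The starts of 4 of these genes are shown because their RNA moved in different ways: MIEF1 had the largest rise of the 10, FIS1 the smallest rise that passed, OMA1 the largest fall, and OPA1 did not pass. Each run is the stretch of 250 bases before the RefSeq start on GRCh38.p14, read 5′ to 3′ on the strand of the gene. The RefSeq starts differ from the ends of the annotated gene positions given below. By those positions the stretches of MIEF1 and FIS1 lie wholly inside the gene, and those of OMA1 and OPA1 partly. Capitals mark matches, on either strand, to any of 6 short motifs: GCGCATGC of the nuclear respiratory factor NRF1, CCGGAAGT of ETS factors, CACGTG of the E-box that MYC and related factors bind, AAGATGGC of YY1, CCAAT of the nuclear factor Y complex, and AAGGTCA of estrogen-related receptors. Matches of GCGCATGC can overlap their own reverse complement. The positions are chr22:39502040-39502289, plus strand for MIEF1, chr7:101245082-101245331, minus strand for FIS1, chr1:58546727-58546976, minus strand for OMA1, and chr3:193592958-193593207, plus strand for OPA1.
MIEF1: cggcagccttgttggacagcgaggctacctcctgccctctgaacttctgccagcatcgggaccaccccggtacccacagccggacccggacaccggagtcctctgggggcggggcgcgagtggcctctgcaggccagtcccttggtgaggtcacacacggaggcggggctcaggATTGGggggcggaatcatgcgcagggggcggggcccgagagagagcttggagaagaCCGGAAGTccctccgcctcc
FIS1: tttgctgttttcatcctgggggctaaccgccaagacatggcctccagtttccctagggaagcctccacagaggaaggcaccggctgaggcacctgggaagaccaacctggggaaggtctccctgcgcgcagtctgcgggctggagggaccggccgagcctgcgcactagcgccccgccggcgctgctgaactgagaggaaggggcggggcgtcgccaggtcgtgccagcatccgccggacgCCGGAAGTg
OMA1: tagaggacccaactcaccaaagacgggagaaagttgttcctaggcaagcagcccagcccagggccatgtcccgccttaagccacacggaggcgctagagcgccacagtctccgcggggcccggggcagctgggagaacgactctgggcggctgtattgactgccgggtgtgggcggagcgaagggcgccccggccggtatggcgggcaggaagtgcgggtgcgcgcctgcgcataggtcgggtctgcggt
OPA1: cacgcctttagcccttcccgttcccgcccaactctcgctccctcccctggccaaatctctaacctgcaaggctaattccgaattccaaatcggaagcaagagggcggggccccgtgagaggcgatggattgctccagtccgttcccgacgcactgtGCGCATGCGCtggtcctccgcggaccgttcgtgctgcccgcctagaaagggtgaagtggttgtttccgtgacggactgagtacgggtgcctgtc

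All 10 members had at least 1 RefSeq start, and MFF and MIEF2 had more than 1. A member was counted if any of its stretches matched, whereas the shares over all genes are per stretch. The ETS letters CCGGAAGT were found before MIEF1, FIS1 and MFN1, and in 3.42% of 35116 such stretches of all genes. The overlapping pair of NRF1 letters was found before OPA1 alone among the members, and the 8 letters stood in 2.63% of all stretches. CCAAT was present before 5 members (DNM1L, MFF, MFN1, MIEF1 and MIEF2) and in 32.0% of all stretches. The E-box, YY1 and estrogen-related receptor letters were found before no member, and in 6.34%, 1.36% and 3.44% of all stretches. Of the 3 members with the ETS letters, MIEF1 and FIS1 rose and MFN1 did not pass. These are matches of letters only, and binding was not measured.

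Gene counts per library were 32.9 to 45.1 in units of 1e6. Values below are CPM, counts per 1e6 of a library size normalised by the trimmed mean of M-values. Gene positions are on GRCh38, from GENCODE release 44. The smallest member count in any library was 104, for OMA1 in knockdown replicate 5. Knockdown replicate 2, and to a lesser degree replicate 1, stood apart from the other 3. On the first principal component of log2 CPM, which held 90.2% of the variance, the controls lay at -85.3 to -80.8, knockdown replicates 2 and 1 at 35.1 and 72.4, and the other knockdown libraries at 95.9 to 114. Genes of the mitochondrial genome took 10.9% and 11.5% of the counts in knockdown replicates 2 and 1, 16.0% to 17.5% in the other knockdown libraries and 10% to 12.2% in controls. Without these 2 libraries the count of members was 4 higher and 5 lower, because MFN1 and OPA1 then passed. Cardiomyocyte markers were present in every library, and 11 of the 12 fell (MYL7 did not pass). Of all tested genes 39.6% fell and 40.1% rose. Summed levels of the cardiomyocyte markers were 43900 to 66500 CPM in control libraries. In knockdown libraries they ran from 16300 CPM in replicate 1 to 29200 CPM in replicate 2. Of 9 fibroblast and stromal markers 2 rose and 4 fell (summed 1260 to 1380 against 951 to 1120 CPM), and all 5 smooth muscle markers fell (1190 to 2450 against 502 to 912 CPM). Of 7 endothelial markers 2 fell (29.6 to 50.4 against 8.66 to 16.9 CPM), of 8 pluripotency markers 3 rose and 1 fell (7.88 to 10.5 against 8.51 to 10.9 CPM), and of 6 endoderm markers 1 rose (5.48 to 7.03 against 11 to 19.9 CPM). In the pluripotency sum the fall of DNMT3B (7.86 to 4.01 CPM) offset the rises of LIN28A (0.258 to 2.51 CPM), DPPA4 (0.211 to 1.65 CPM) and ZFP42 (0.14 to 0.805 CPM). PECAM1, CDH5 and ERG of the endothelial list and POU5F1, NANOG and SOX2 of the pluripotency list had too few counts to be tested, as did TCF21 of the stromal list and AFP, TTR, FOXA2 and APOB of the endoderm list. In whole cultures fewer cells of a type and less RNA per cell cannot be told apart, and the part of these shifts in the results below was not tested.

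**Figure D1:**
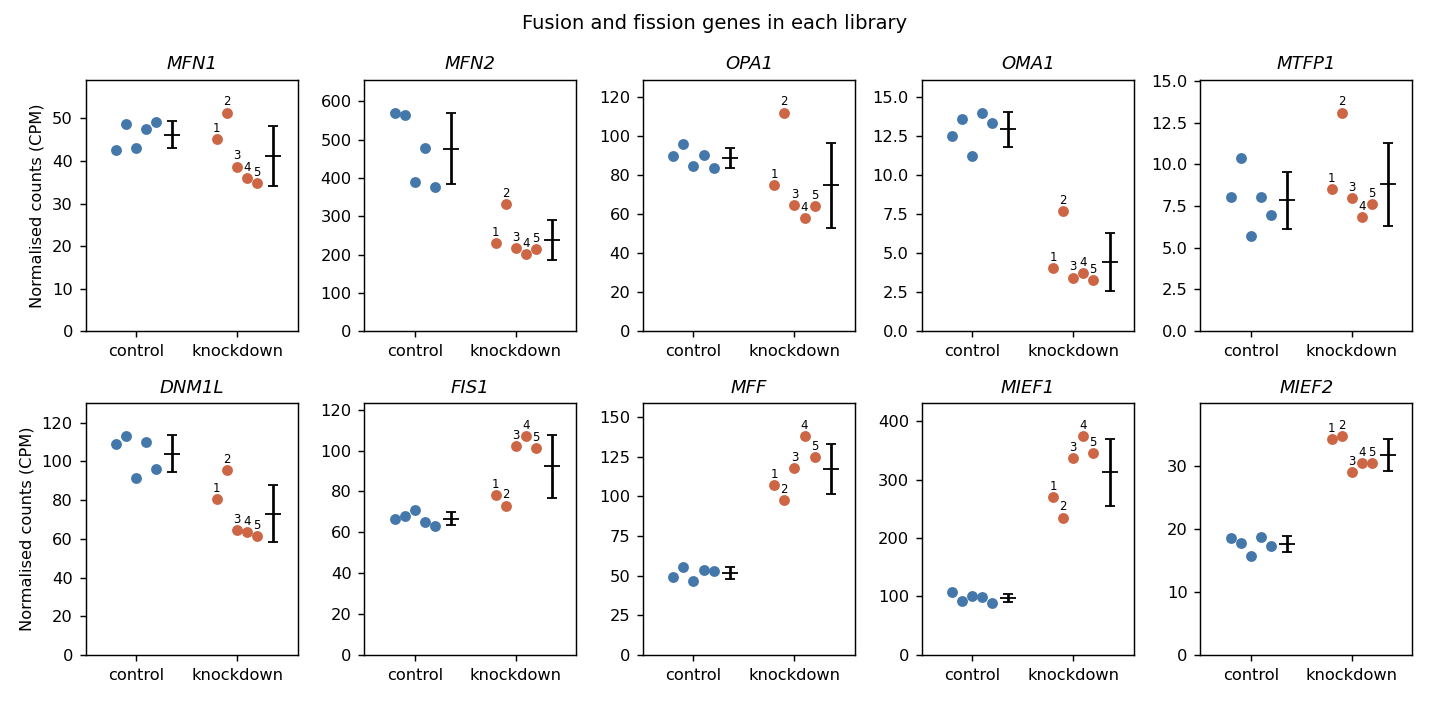
CPM of the 10 genes in each library, 1 panel a gene, with controls in blue and knockdown libraries in orange, numbered by replicate, and the mean with its SD (n = 5) as a black bar. The 4 DRP1 adaptors in the lower row lie above all controls, MFN2 and OMA1 lie below all controls, and knockdown replicate 2 is the highest of the knockdown libraries for MFN1, MFN2, OPA1, OMA1, MTFP1, DNM1L and MIEF2.

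Among the adaptors, MIEF1 (ENSG00000100335, chromosome 22, 39499432 to 39518132) rose most. MIEF1 encodes an outer membrane protein that binds DRP1 and promotes its assembly. Its level was 108, 92.1, 100, 98.5 and 88.2 CPM in control replicates 1 to 5 and 270, 235, 337, 374 and 345 CPM in knockdown replicates 1 to 5. Every knockdown library lay above every control, with replicates 1 and 2 nearest to them. The means were 97.4 ± 7.57 and 312 ± 57.9 CPM (SD, n = 5), a log2 fold change of 1.68 ± 0.132 (SE) or 3.21-fold (edgeR's quasi-likelihood test, adjusted p = 3.02e-07). A second coding locus, MIURF, which encodes a microprotein in the 5′ part of the MIEF1 transcript, shares 213 exonic bases with it and was listed at 0 counts in all libraries, so reads of the shared stretch are uncertain.

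Its paralog MIEF2 (ENSG00000177427, chromosome 17, 18260597 to 18266552) has the same role. Control libraries had 18.5, 17.8, 15.7, 18.7 and 17.3 CPM, and knockdown libraries 34.3, 34.7, 29.0, 30.4 and 30.4 CPM. The groups did not overlap, and here knockdown replicates 1 and 2 were the 2 highest. MIEF2 rose 1.81-fold, from 17.6 ± 1.21 to 31.8 ± 2.59 CPM (SD, n = 5), or 0.85 ± 0.0867 (SE) on the log2 scale (edgeR's quasi-likelihood test, adjusted p = 1.97e-06). The ratio of MIEF1 to MIEF2 counts within a library, into which no scaling between libraries enters, was 5.11 to 6.41 in controls and 6.75 to 12.3 in knockdown libraries. The geometric means were 5.53 and 9.71, a shift of 1.75-fold toward MIEF1 (two-sided p = 0.00794 by exact permutation, adjusted p = 0.00992 over 5 ratios). With 5 libraries against 5 this is the lowest p the test allows.

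MFF (ENSG00000168958, chromosome 2, 227325151 to 227357833) encodes the mitochondrial fission factor, a main DRP1 receptor in mammalian cells. It was at 49.2, 55.7, 46.7, 53.8 and 52.9 CPM in control and 107, 97.5, 118, 138 and 125 CPM in knockdown libraries. The lowest knockdown library, replicate 2, was still well above the highest control. MFF rose 2.26-fold, from 51.7 ± 3.64 to 117 ± 15.5 CPM (SD, n = 5), or 1.18 ± 0.102 (SE) on the log2 scale (edgeR's quasi-likelihood test, adjusted p = 6e-07). The divergent non-coding gene MFF-DT starts 560 bases from it on the other strand and shares 507 exonic bases with it. MFF-DT went the other way, from 1.27 to 0.505 CPM (log2 fold change -1.33 ± 0.176 SE, adjusted p = 1.73e-05 in edgeR's test). At these levels MFF-DT is a small part of the reads at the locus, and although the library kit keeps strand, the strand setting of the counting is not given in the sources used here.

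FIS1 (ENSG00000214253, chromosome 7, 101239458 to 101252316) encodes a small tail-anchored outer membrane protein, the fission protein first known from yeast. Control libraries had 66.4, 67.9, 71.1, 65.2 and 62.9 CPM and knockdown libraries 78.2, 73.0, 102, 107 and 101 CPM. The groups were separate, but knockdown replicate 2 exceeded control replicate 3 by little. FIS1 rose 1.38-fold, from 66.7 ± 3.06 to 92.3 ± 15.5 CPM (SD, n = 5), or 0.47 ± 0.112 (SE) on the log2 scale (edgeR's quasi-likelihood test, adjusted p = 0.00204). The ratio of MFF to FIS1 counts was 0.658 to 0.841 in controls and 1.16 to 1.37 in knockdown libraries, a shift of 1.65-fold toward MFF (exact permutation test, two-sided p = 0.00794, adjusted p = 0.00992 over 5 ratios).

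DNM1L (ENSG00000087470, chromosome 12, 32679200 to 32745650), the gene of the GTPase that these adaptors recruit, fell. Its level was 109, 113, 91.2, 110 and 96.2 CPM in control and 80.5, 95.6, 64.4, 63.6 and 61.2 CPM in knockdown libraries. The groups overlapped, since knockdown replicate 2 was above control replicate 3. The means were 104 ± 9.61 and 73.1 ± 14.7 CPM (SD, n = 5), which was 1.42-fold lower (log2 fold change -0.51 ± 0.13 SE, adjusted p = 0.00312 in edgeR's quasi-likelihood test). Without knockdown replicates 1 and 2, left out together after seeing the data, the log2 fold change was -0.73 ± 0.0786 (SE). MTFP1 (ENSG00000242114, chromosome 22, 30425623 to 30429054), the inner membrane division factor, had the fewest counts of the fission genes. It was at 8.05, 10.4, 5.73, 8.03 and 6.98 CPM in control and 8.49, 13.1, 7.97, 6.82 and 7.63 CPM in knockdown libraries. The annotated locus ENSG00000249590 on the same strand shares 890 exonic bases with MTFP1 and had 0 and 3 counts over all control and all knockdown libraries, so reads of the shared stretch are uncertain. The values of MTFP1 overlapped widely, with knockdown replicate 2 the highest of all. The log2 fold change was 0.17 ± 0.195 (SE) and did not pass (edgeR's quasi-likelihood test, adjusted p = 0.44). Its 95% interval ran from 0.837-fold to 1.51-fold, and the sign turned without knockdown replicate 2 (-0.03).

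On the fusion side the mitofusins separated. MFN2 (ENSG00000116688, chromosome 1, 11980181 to 12015211) also tethers mitochondria to the endoplasmic reticulum. Control libraries had 571, 565, 390, 479 and 377 CPM and knockdown libraries 230, 331, 216, 202 and 215 CPM. All knockdown libraries lay below all controls, although the controls themselves ranged widely. MFN2 fell 1.99-fold, from 476 ± 92.5 to 239 ± 52.6 CPM (SD, n = 5), or -0.996 ± 0.168 (SE) on the log2 scale (edgeR's quasi-likelihood test, adjusted p = 0.000142).

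MFN1 (ENSG00000171109, chromosome 3, 179347709 to 179394936), the mitofusin with the stronger GTPase and tethering activity, had 42.6, 48.6, 43.0, 47.6 and 49.2 CPM in control and 45.1, 51.4, 38.7, 35.9 and 34.9 CPM in knockdown libraries. Knockdown replicates 3, 4 and 5 were below all controls, replicate 1 was among them and replicate 2 above them. The log2 fold change was -0.16 ± 0.112 (SE), with a 95% interval from 0.753-fold to 1.06-fold (edgeR's quasi-likelihood test, adjusted p = 0.195). MFN1 passed without knockdown replicate 2 (-0.27, adjusted p = 0.0142 in the same test), and its sign turned under upper-quartile scaling (0.03, not passing). It also passed without replicates 1 and 2, left out together after seeing the data (-0.35, adjusted p = 0.000449 in the same test). The count ratio of MFN1 to MFN2 within a library was 0.0746 to 0.131 in controls and 0.155 to 0.197 in knockdown libraries. That ratio was 1.77-fold higher in the knockdown group, without overlap (exact permutation test, two-sided p = 0.00794, adjusted p = 0.00992 over 5 ratios). The log2 fold change of MFN1 (-0.16) was small beside that of MFN2 (-0.996), so this shift largely repeats the fall of MFN2.

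OPA1 (ENSG00000198836, chromosome 3, 193593144 to 193697811) varied most between knockdown libraries relative to controls. Its level was 89.7, 96.1, 84.6, 90.3 and 83.5 CPM in control and 74.8, 112, 64.5, 58.1 and 63.9 CPM in knockdown libraries. Replicate 2 lay above every control and the other 4 knockdown libraries below every control. The coefficient of variation was 5.66% in control and 29.0% in knockdown libraries. Over all libraries the log2 fold change was -0.25 ± 0.157 (SE), with a 95% interval from 0.663-fold to 1.06-fold (edgeR's quasi-likelihood test, adjusted p = 0.157). It was -0.45 without knockdown replicate 2 (adjusted p = 0.000193 in the same test). Without replicates 1 and 2, left out together after seeing the data, it was -0.53 ± 0.068 (SE, adjusted p = 5.09e-06 in the same test). The count ratio of OPA1 to DNM1L was 0.82 to 0.928 in controls and 0.913 to 1.17 in knockdown libraries, so the groups overlapped. The shift was 1.18-fold toward OPA1 (exact permutation test, two-sided p = 0.0159, adjusted p = 0.0159 over 5 ratios), and without knockdown replicates 1 and 2 it did not pass (log2 difference 0.20, adjusted p = 0.0714 in the exact test). The counts are per gene and hold no information on OPA1 splice forms or on the long and short OPA1 proteins.

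OMA1 (ENSG00000162600, chromosome 1, 58415384 to 58546802), the stress-activated protease that cuts OPA1, had the largest fall of the 10. Control libraries had 12.5, 13.6, 11.2, 14.0 and 13.3 CPM and knockdown libraries 4.06, 7.70, 3.43, 3.73 and 3.28 CPM. The groups were separate, and knockdown replicate 2 lay about midway between the other knockdown libraries and the controls. OMA1 fell 2.89-fold, from 12.9 ± 1.12 to 4.44 ± 1.85 CPM (SD, n = 5), or -1.53 ± 0.216 (SE) on the log2 scale (edgeR's quasi-likelihood test, adjusted p = 3.13e-05). On the same strand the annotation overlaps OMA1 with DAB1, an adaptor gene of reelin signalling, over 257 exonic bases. DAB1 went from 46.7 to 5.78 CPM (log2 fold change -3 ± 0.289 SE, adjusted p = 1.35e-06 in edgeR's test), so the reads that the authors' counting gave to either gene are uncertain.

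YME1L1, the other protease that cuts OPA1, differed little. Control libraries had 225, 220, 211, 217 and 202 CPM and knockdown libraries 180, 185, 196, 206 and 196 CPM. The groups overlapped through control replicate 5 and knockdown replicate 4. Its log2 fold change was -0.16 ± 0.0776 (SE, edgeR's quasi-likelihood test, adjusted p = 0.0755), it passed without control replicate 5 (-0.21, adjusted p = 0.042), and its sign turned under upper-quartile scaling (0.04, not passing). YME1L1 shares 443 exonic bases with MASTL on the other strand. The count ratio of YME1L1 to OMA1 was 15.2 to 18.8 in controls and 24.0 to 59.4 in knockdown libraries, a 2.73-fold shift (exact permutation test, two-sided p = 0.00794, adjusted p = 0.00992 over 5 ratios). Since YME1L1 itself differed little, this shift largely repeats the fall of OMA1.

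**Figure D2:**
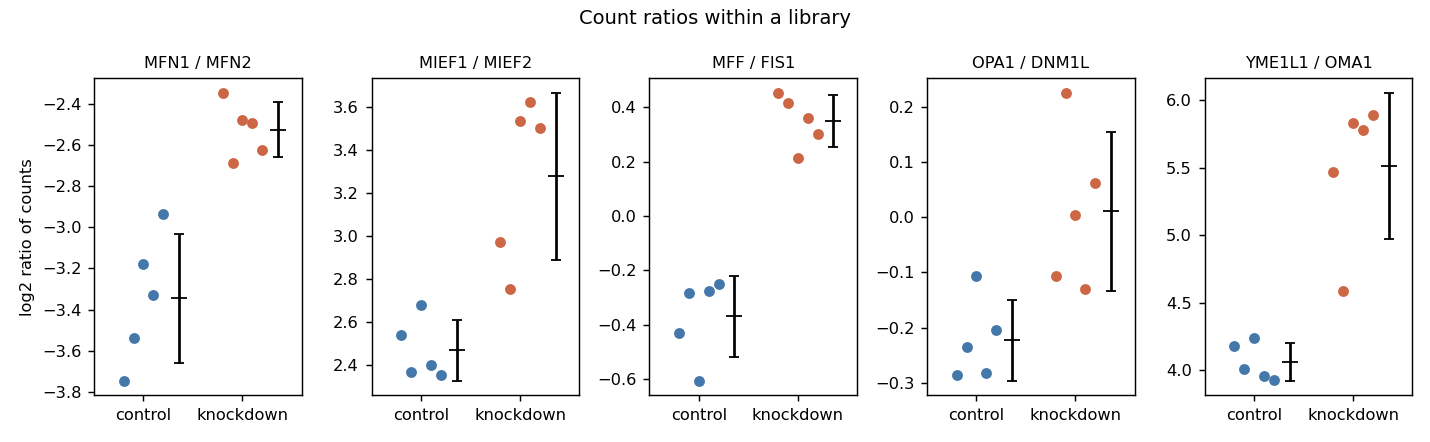
log2 ratio of the counts of 2 genes within each library, for 5 pairs, controls in blue and knockdown libraries in orange in the order of their replicate numbers, with the mean and SD (n = 5) in black. The groups overlap for OPA1 to DNM1L and are apart for the other pairs, with the largest shift, 2.73-fold, for YME1L1 to OMA1. Ratios of other gene pairs were not examined, and 67.5% of all tested genes taken singly did not overlap between the groups.

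The order of the 10 transcripts by abundance changed with these differences. Levels between genes are compared as CPM per kb of the canonical GENCODE transcript. In controls MFN2 led with 108 ± 21.0, followed by FIS1 with 76.7 ± 3.52, MFF with 26.9 ± 1.89, DNM1L with 23.0 ± 2.13, MIEF1 with 17.1 ± 1.33, OPA1 with 13.8 ± 0.782 and MFN1 with 8.86 ± 0.608 CPM per kb (SD, n = 5). OMA1, MTFP1 and MIEF2 were lowest at 6.93, 6.92 and 5.44 CPM per kb. The ranges of MFF (24.3 to 29.0) and DNM1L (20.2 to 25) overlapped, as did those of MTFP1 (5.06 to 9.19) with MFN1, OMA1 and MIEF2, while the other neighbours in that order were apart. In knockdown libraries FIS1 led with 106 ± 17.8, and MFF (60.9 ± 8.08), MIEF1 (54.9 ± 10.2) and MFN2 (54.2 ± 11.9) followed with overlapping ranges. DNM1L was at 16.2, OPA1 at 11.6, MIEF2 at 9.83, MFN1 at 7.90, MTFP1 at 7.76 and OMA1 at 2.39 CPM per kb. MIEF1 thus stood below DNM1L in controls and above it in knockdown libraries. With the union of all annotated exons as the length, MFF had 8.37 CPM per kb in controls and came after DNM1L, MIEF1 (12.9 each) and OPA1 (9.82), so the places of MFF and MIEF1 in controls depend on the transcript length used.

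Gene length goes with the direction of change in this comparison, so each member is set beside coding genes of its own class of annotated span. MIEF2 (5.96 kb) and MTFP1 (3.43 kb) fall among 2234 genes of 3 to 10 kb whose median was 0.71 on the log2 scale, and 64.4% of them rose. FIS1 (12.9 kb) and MIEF1 (18.7 kb) fall among 4068 genes of 10 to 30 kb whose median was 0.27, and 48.9% of them rose. MFF (32.7 kb), MFN2 (35.0 kb), MFN1 (47.2 kb) and DNM1L (66.5 kb) fall among 4783 genes of 30 to 100 kb whose median was -0.48, and 57.0% of them fell while 23.2% rose. OPA1 (105 kb) and OMA1 (131 kb) fall among 2434 genes of 100 to 300 kb whose median was -1.30, and 82.7% of them fell. The log2 fold changes of MIEF1 (1.68) and MFF (1.18) lay above the upper quartile of their class (0.93 and 0.20), and that of OPA1 (-0.25) lay above the upper quartile of its class (-0.62). MTFP1, MFN1, MFN2, DNM1L, FIS1, MIEF2 and OMA1 lay between the quartiles. The canonical transcript of OMA1 spans 66.0 kb and that of FIS1 5.61 kb, which would move each to the next shorter class, and OMA1 would then lie below the lower quartile of its class (-1.13). The part of gene length in these changes was not tested.

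**Figure D3:**
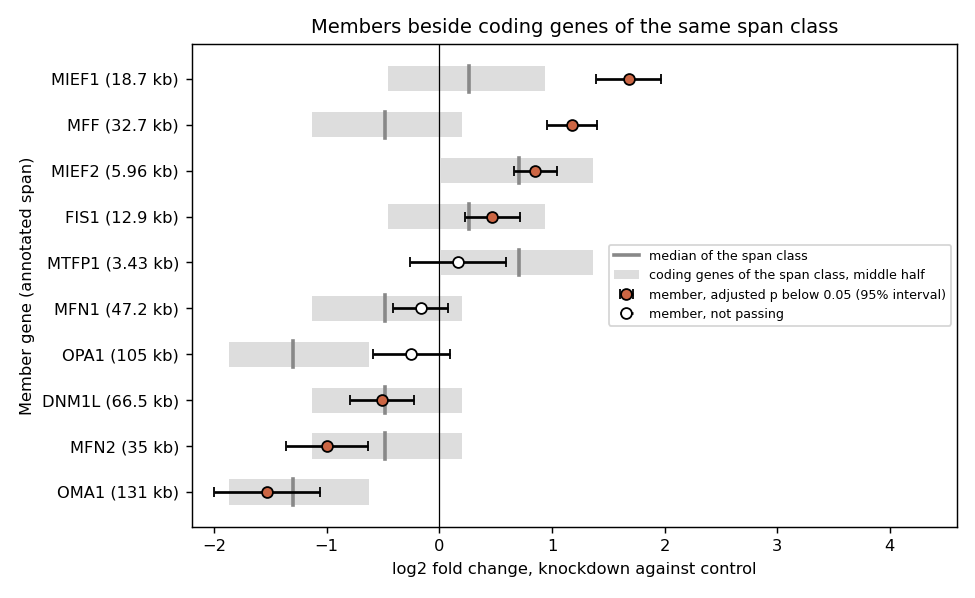
log2 fold change of each member with its 95% interval, filled where the adjusted p was below 0.05, over the range between the quartiles (grey bar) and the median (dark line) of coding genes of the same span class. MIEF1, MFF and OPA1 lie to the right of their grey bars and the other 7 genes within them.

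The knockdown libraries differed from the controls to unequal degrees. Across the transcriptome, the mean log2 level of coding genes over 100 kb minus that of coding genes of up to 10 kb, relative to controls, was -1.27 in replicate 2, -1.68 in replicate 1 and -2.09 to -2.35 in replicates 3, 4 and 5, against -0.05 to 0.05 in controls. The part of this shift in the order of the libraries for the members was not tested. Replicate 2 deviated least from the control mean in OMA1, MFN2, DNM1L, FIS1, MFF and MIEF1, with log2 differences of -0.71, -0.50, -0.11, 0.13, 0.91 and 1.27. Replicates 3, 4 and 5 had -1.66 to -1.82 for OMA1, -1.12 to -1.21 for MFN2, -0.68 to -0.75 for DNM1L, 0.60 to 0.68 for FIS1, 1.19 to 1.41 for MFF and 1.79 to 1.94 for MIEF1. Replicate 1 lay between replicate 2 and these 3 in all 6 genes. MIEF2 went against this order, with 0.95 and 0.97 in replicates 1 and 2 and 0.71 to 0.78 in the other 3. LPIN1, the phosphatidate phosphatase gene of the series title, was at 110 to 125 CPM in controls, at 59.6 and 66.6 CPM in knockdown replicates 1 and 2, and at 46.6 to 56.2 CPM in the other 3.

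**Figure D4:**
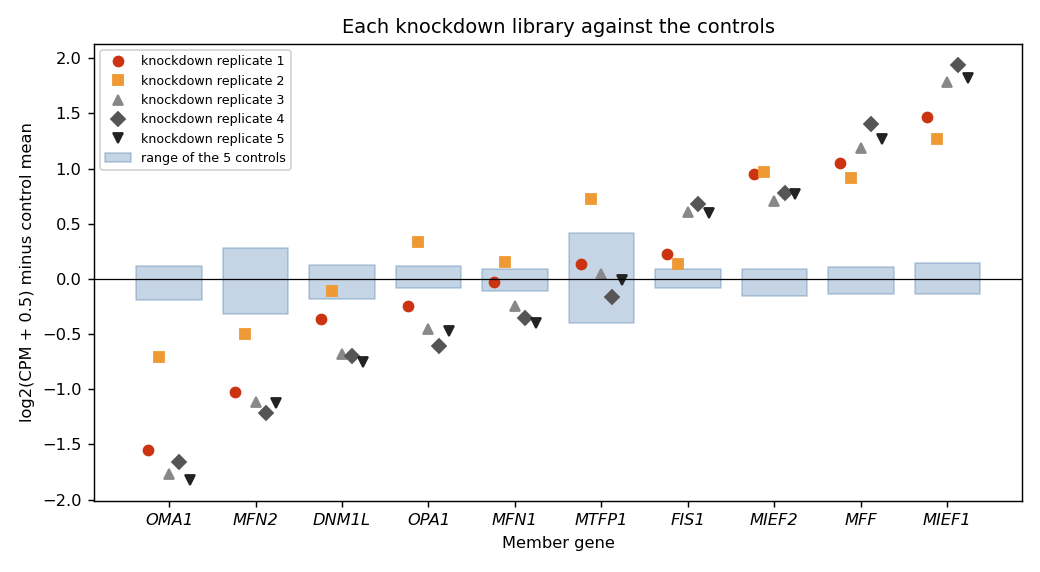
log2(CPM + 0.5) of each knockdown library minus the control mean, for the 10 genes, with the range of the 5 controls as blue boxes. Orange squares, replicate 2, lie nearest to 0 or on the upper side for OMA1, MFN2, DNM1L, OPA1, MFN1 and MTFP1 and are the lowest for FIS1, MFF and MIEF1.

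For the 4 GTPase genes, the most alike coding gene was taken as the one with the highest Pearson correlation of log2 CPM over the 10 libraries, among 14776 others. It was APOL2 for MFN1 (0.985), ADAM19 for MFN2 (0.998), ASB11 for OPA1 (0.988) and FAM169A for DNM1L (0.995). Each pair of genes was measured in the same 10 libraries of 2 groups, so the coefficients describe these libraries only. ADAM19, a membrane metalloprotease gene, had a log2 fold change of -2.17, and FAM169A one of -0.64 (adjusted p = 7.22e-05 and 0.00467 in edgeR's test). APOL2 (-0.39) and ASB11 (-0.43) did not pass over all libraries, and both passed without knockdown replicate 2 (-0.67 and -0.77). Both were picked for their likeness to MFN1 and OPA1 in these libraries, so this likeness follows from the choice.

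Partners and regulators of these proteins were described from 4 lists. Of 9 genes of OPA1 processing and the inner membrane 5 rose and 2 fell, with a median log2 fold change of 0.80. STOML2, a scaffold protein that binds OPA1, rose 2.29-fold from 65.7 to 150 CPM, and ROMO1, an inner membrane protein needed for OPA1 oligomers, rose 2.55-fold from 34.3 to 87.5 CPM. Both subunits of the matrix-facing AAA protease fell, SPG7 2.94-fold from 112 to 38.2 CPM and AFG3L2 2.82-fold from 214 to 76.1 CPM. AFG3L2 shares 837 exonic bases with TUBB6 and ROMO1 84 with NFS1 on the other strand.

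Of 10 mitofusin partners and ligases 3 rose and 5 fell (median -0.12). HUWE1, a ubiquitin ligase that acts on mitofusins, fell 2.43-fold from 580 to 238 CPM, and MIGA2, an outer membrane protein that promotes fusion, fell 2-fold from 79.6 to 39.7 CPM. MUL1, an outer membrane ligase, rose 2.16-fold from 47.6 to 103 CPM, and USP30, the deubiquitinase of the outer membrane, rose 1.7-fold from 17.4 to 29.6 CPM. USP30 shares 277 exonic bases with its antisense gene.

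Of 17 genes of DRP1 recruitment and modification 2 rose and 11 fell (median -0.85). DNM2, a dynamin reported to act late in division, fell 2.88-fold from 196 to 67.8 CPM, and PPP3CA, a catalytic subunit of calcineurin, which dephosphorylates DRP1, fell 2.76-fold from 36.2 to 13.1 CPM. PGAM5, a mitochondrial phosphatase, rose 2.25-fold from 35.4 to 79.7 CPM. MTFR2, at 1.79 and 2.96 CPM, rose 1.64-fold with overlap between the groups. The call of MTFR2 (adjusted p = 0.0239 in edgeR's quasi-likelihood test) was lost in limma-voom (adjusted p = 0.0728) and without any 1 of control replicates 2 and 4 and knockdown replicates 3, 4 and 5 (adjusted p = 0.0516 to 0.0628 in edgeR). DNM2 shares 910 exonic bases with TMED1 on the other strand, PPP3CA 46 with the non-coding FLJ20021 there, and PGAM5 55 with a non-coding gene on its own strand.

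All 5 genes of mitochondrial transport on microtubules fell (median -1.10), among them the outer membrane GTPase RHOT1 (3.13-fold, 54.0 to 17.2 CPM) and the motor adaptor TRAK1 (1.76-fold, 156 to 88.6 CPM). By annotated span, RHOT1 (111 kb), TRAK1 (212 kb), HUWE1 (155 kb) and DNM2 (115 kb) fall in the class of 100 to 300 kb, in which 82.7% of coding genes fell with a median of -1.30. SPG7 (67 kb), AFG3L2 (48.3 kb) and MIGA2 (35.5 kb) fall in the class of 30 to 100 kb, in which 57.0% fell, and so does USP30 (64.9 kb), which rose. STOML2 (3.42 kb) and MUL1 (8.7 kb) fall in the class of 3 to 10 kb, in which 64.4% rose and 15.2% fell. Of the remaining transport genes, TRAK2 (74.3 kb) and KIF5B (47.4 kb) belong to the class of 30 to 100 kb. RHOT2 (6.08 kb) belongs to the class of 3 to 10 kb. It went against most of that class, with a 2.14-fold fall from 105 to 48.9 CPM. RHOT1 shares 260 exonic bases with a non-coding gene on the other strand. Other than MTFR2, 13 genes of these lists were named by their p. Their adjusted p-values were at least 7.06e-08 and at most 3.11e-05 by edgeR's quasi-likelihood test, and their groups did not overlap. They were named for the smallest p in their list, so low p-values and separate groups follow from the choice. Values without overlap were seen in 67.5% of all tested genes. The lists are read against the background of 40.1% higher and 39.6% lower genes.

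**Figure D5:**
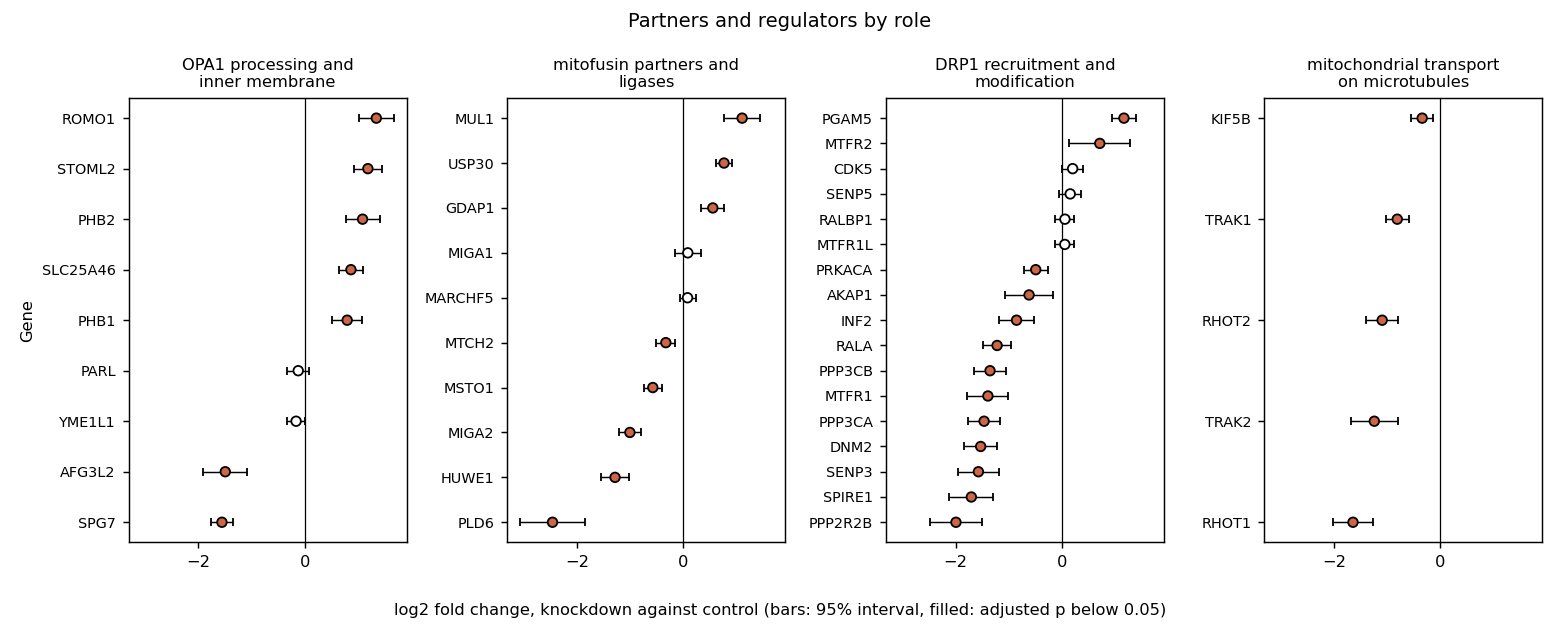
log2 fold change of 41 partners and regulators in 4 lists, with 95% intervals as bars and filled points where the adjusted p was below 0.05. Genes of OPA1 processing lie on both sides, and all 5 transport genes lie to the left of 0.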

How the data were processed

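RNA of 10 libraries was measured, 5 for each GapmeR, grouped and numbered by title. Per the labels' protocols and the submitters' processing notes, total RNA libraries (TruSeq Stranded) were sequenced in pairs, and the authors used Trim Galore 0.65 for trimming, STAR 2.7.0 for alignment to GRCh38 and HTSeq for counting, whose version and strand setting the sources used here do not give. The values in the deposited file are raw read counts per Ensembl gene. The design text names GENCODE release 38, but 17451 of the 78932 identifiers are absent from release 44, the source of names, positions and lengths here, so the release behind the table is uncertain. Those 17451 held 0.25% to 0.408% of a library's counts. Library sizes were summed over the tested genes, so only the 1060 of these identifiers that were tested stayed in them. Control columns carry another abbreviation than the labels and were assigned by title, and 0 columns stayed unmapped.

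After filterByExpr and scaling by the trimmed mean of M-values, genes were compared by edgeR 4.0.16 (R 4.3.3) with its robust quasi-likelihood test, Benjamini-Hochberg adjusted over 21033 genes at 0.05. The SE is the absolute log2 fold change divided by the root of F. The scaling sets the bulk of genes to no change. The common biological coefficient of variation was 19.2%. Ratios are log2 of counts plus 0.5, compared by exact permutation over 252 labelings (scipy 1.17.1) and adjusted over 5 ratios. Nothing says that replicates came from separate cultures, so p-values measure the spread between these samples, which may be technical. The lowest chi-square per degree of freedom between libraries of a group was 4.13, so all 10 counted.

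The members and lists were chosen with earlier results of these data known. Named are the members, up to 2 rising and 2 falling genes with the smallest p in each regulator list, genes in the ratios, the most alike gene of each GTPase, genes overlapping a member or starting within 1000 bases of its start (those whose counts bear on a member), and LPIN1. The remaining genes of microtubule transport are named for their spans. A gene of the mitofusin partner list is not reported here and was left out of that list's counts. Promoter stretches came from RefSeq. Simulated data for knockdown against control (19465 genes) were tested first: the gene test found 44.8% of the 67 genes with a true 1.5-fold change, 83.6% of the 67 with a 2-fold change and 97.0% of the 66 with a 4-fold change. In the simulation only these genes were changed, whereas 79.7% of all tested genes passed in the data. The shares found are thus not the power of the reported fit. The alternatives were DESeq2 1.42.0 as a test and for size factors, upper-quartile scaling, limma-voom (limma 3.58.1), every gene with a count, only genes averaging 1 CPM or more, a dispersion fit that was not robust, removal of mitochondrial genome genes, a block for the replicate number, each library left out, a pseudocount of 5 for ratios, and, chosen after seeing the data, knockdown replicates 1 and 2 left out together. Figures were drawn with matplotlib 3.10.9.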

Additional observations from a re-analysis of the deposited data

Results flagged for a closer look

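A library lay far from the other 4 of its group in 3 of 34 groups of 5 values examined (gap over range above Dixon's limit of 0.71). For independent groups about 1 in 20 would be flagged by chance. These groups share the same libraries, and the ratios reuse gene counts, so the share flagged cannot be set against that rate. All 3 flagged values were of knockdown replicate 2, with MFN2 at 331 CPM, OMA1 at 7.70 CPM and MTFP1 at 13.1 CPM. For MFN2 and OMA1 this value was the nearest of the knockdown group to the controls, and for MTFP1 it was the highest of all 10 libraries. The same library had 10.9% of its counts in the mitochondrial genome, the lowest share of the knockdown group, and its part in these values was not tested.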

How the results depend on the processing

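MFN2, OMA1, DNM1L, FIS1, MFF, MIEF1 and MIEF2 kept their direction and their call in all 20 alternatives. The number of higher members was 4 in every one. The number of lower members, 3 in the reported fit, ranged from 3 to 5 when 1 library was left out and was 5 without knockdown replicate 2, and it was 5 without knockdown replicates 1 and 2 together. Across all tested genes 8441 were higher and 8332 lower, and no alternative moved either count by over 1.5 times. Upper-quartile scaling shifted the median log2 fold change of all genes by 0.197, and under it the sign turned for MFN1 and YME1L1, neither of which passed. With the replicate block the members were again 4 higher and 3 lower, and OMA1 had a log2 fold change of -1.60, against -1.53 without it. Libraries of the same number correlated at -0.256 to 0.271 in their deviations from the group means, so the numbers are not taken as pairs, and the replicate block made ASB11 pass (-0.53). All 5 ratios passed with a pseudocount of 5 and with any 1 library left out, and OPA1 to DNM1L fell short without knockdown replicates 1 and 2 (log2 difference 0.2008). The smallest member counts were 104 for OMA1 and 192 for MTFP1.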

Other observations

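Other annotated genes inside or beside the span of DNM1L moved both ways. YARS2, the mitochondrial tyrosyl-tRNA synthetase gene on the other strand, rose from 13.6 to 17.5 CPM, or 0.37 ± 0.0852 (SE) on the log2 scale (edgeR's quasi-likelihood test, adjusted p = 0.0016), while DNM1L itself fell. The non-coding genes ENSG00000275854 (-0.51), which shares 202 exonic bases with DNM1L, and ENSG00000274105 (-1.27) and the pseudogene ENSG00000257511 (-1.65) fell, all below 1.5 CPM in control libraries. ENSG00000275854 did not pass under upper-quartile scaling (-0.31, adjusted p = 0.0878 in edgeR). Inside the span of MFN1 the non-coding gene ENSG00000289574 did not pass (0.25). ATP13A4, whose start lies 33 bases from that of OPA1 on the other strand, had 72 counts over the controls and 30 over the knockdown libraries, too few to be tested.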
